A study of Mus musculus with 12 samples.

Results

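Loss of Dicer was examined in activated macrophages by comparing 3 Dicer KO libraries with 3 control libraries, all from cells that had received lipopolysaccharide (LPS) for 6 h. These 6 libraries were chosen by genotype and treatment from the labels of a series of 12, and the other 6 are the same genotypes without LPS. RNA was sequenced from macrophages grown for 7 days from marrow of male C57BL/6 mice in medium with supernatant of L929 cells, a source of macrophage growth factor. All cultures received diluted ethanol overnight, and then LPS, given in the labels as 100 ng/ul, or phosphate-buffered saline as the vehicle. The Dicer KO genotype is LysMcre/+;Dicerfl/fl;ApoE-/- and that of the littermate controls LysMcre/+;Dicer+/+;ApoE-/-, so that Apoe was knocked out in both groups and both titles carry a Cre allele, although another field of the labels calls the controls wildtype. LysM-Cre drives Cre recombinase from the Lyz2 locus in myeloid cells, and it deletes the floxed part of Dicer1 only in cells in which it has become active, so that some cells of a culture can keep the gene. Whether replicates are separate mice is not in the labels, and p-values then measure only the spread between these samples, which may be technical.

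Dicer is the ribonuclease that cuts hairpin precursors into mature microRNAs, which guide Argonaute proteins to messages with a matching seed and lower their stability and translation. In macrophages LPS acts through the receptor TLR4, which induces cytokines through NF-kappaB and interferon beta through IRF3, and interferon beta in turn induces a large set of antiviral genes through its receptor. MicroRNAs such as miR-155 and miR-146a are induced by this pathway and are known for acting back on its components.

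The 6 LPS libraries held 17136578 to 18785476 counts in genes and had a count in 17089 to 17778 genes. Levels are given as CPM, counts relative to the library size after TMM scaling, in the usual unit of that name, which sets the typical gene at no change, and the values of a group are listed in the order of replicates 1, 2 and 3. Fewer cells of a type and less RNA per cell cannot be told apart in such bulk samples. The first principal component of the 6 libraries, with 74.7% of the variance, separated the genotypes. The second, with 7.89%, set Dicer KO LPS replicate 1 at -25.99 apart from replicates 2 and 3 at 9.94 and 14.99, and counts without that library are given beside the main ones. Scaling by library totals in place of TMM moved the median log2 fold change of all genes from -0.03 to -0.38. A direction that is reported here as small therefore holds only relative to the other genes.

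The targeted gene was lower in the Dicer KO libraries. Dicer1 (ENSMUSG00000041415, GRCm38 chromosome 12, 104687742 to 104751952) measured 47.04, 48.6 and 52.5 CPM in the control LPS libraries and 15.9, 14.3 and 16.3 CPM in the Dicer KO LPS libraries. The groups did not overlap, and Dicer KO had 3.18 times less (log2 fold change -1.67 ± 0.07 SE, adjusted p = 2.14e-12, edgeR). Counts are per gene and may include exons outside the floxed part, so the level is no measure of how much working enzyme remained. Lyz2 (chromosome 10, 117277331 to 117282321), the lysozyme gene that holds the Cre insertion, measured 4281, 3891 and 4008 CPM in control and 16.2, 20.6 and 19.9 CPM in Dicer KO, a 215-fold drop (adjusted p = 1.98e-19). The titles give both genotypes a single Cre allele, which by itself sets no difference between them and leaves the uninterrupted allele to be transcribed. The drop goes against the titles. The Dicer1 genotype and the state of the Lyz2 locus cannot be told apart in any comparison of these groups. The paralog Lyz1 measured 77.1, 68.8 and 69.7 CPM in control and 71.8, 68.7 and 66.96 CPM in Dicer KO, which overlap (adjusted p = 0.558). Apoe, knocked out in all donors, was low in both groups, at 3.67, 4.904 and 4.16 CPM in control and 1.503, 1.13 and 0.979 CPM in Dicer KO.

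Of 13837 genes tested after LPS, Dicer KO had 3983 with a higher and 3741 with a lower level, which is 28.8% and 27.0% of the genes tested, or 55.8% in all. Of these, 844 (6.1%) were at least 2-fold higher and 918 (6.63%) at least 2-fold lower, 12.7% together. Without Dicer KO LPS replicate 1 the counts were 3814 and 3487, with 835 and 961 at least 2-fold. Of all calls 51.6% were higher with TMM, 57.8% with DESeq2 and 19.8% with library totals, which gave 1885 higher and 7626 lower. The control and Dicer KO libraries did not overlap in 8756 genes, 63.3% of those tested, and in 54.2% they were called as well. Counts of called list members given below are to be read beside the shares of all genes, 28.8% higher and 27.0% lower.

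**Figure D1:**
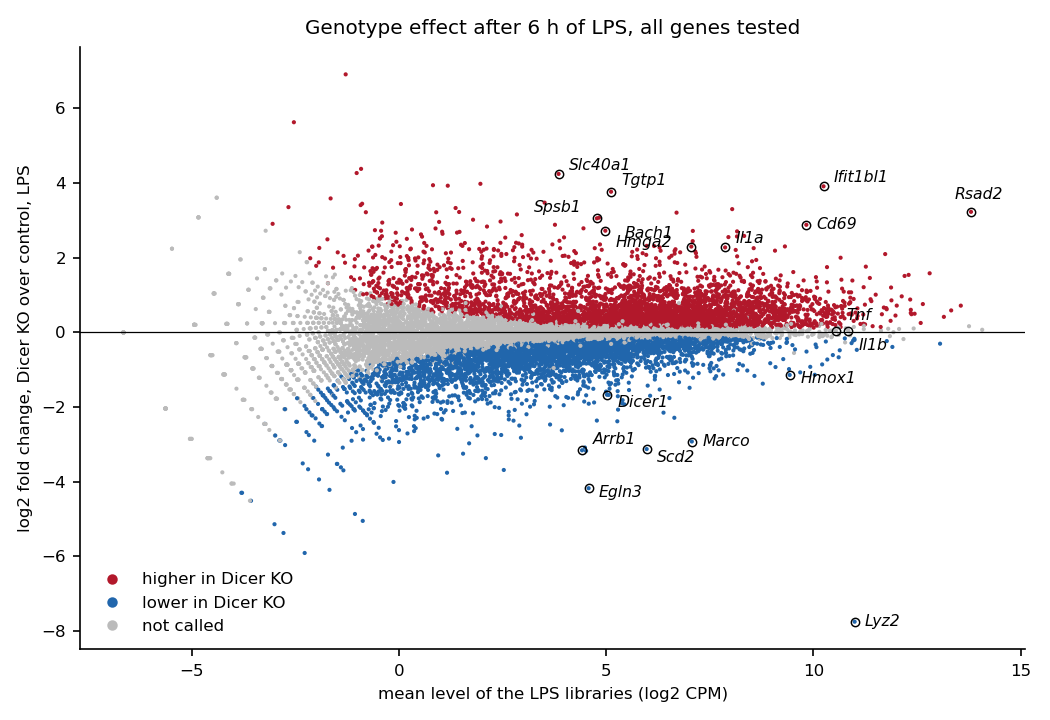
Each point is 1 of the 13837 genes tested, with its mean level in the 6 LPS libraries (log2 CPM) on the horizontal axis and the log2 fold change of Dicer KO over control after LPS on the vertical axis. Red and blue points passed an adjusted p of 0.05 in the edgeR test; Lyz2 lies lowest at -7.75, and Rsad2 combines a high level with a log2 fold change of 3.23.

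The largest rise among genes with at least 5 CPM in a group, predicted genes left out, was in Slc40a1, which encodes ferroportin, the exporter of iron from macrophages. It measured 1.31, 1.695 and 1.302 CPM in control and 28.03, 25.8 and 28.5 CPM in Dicer KO, 19.1-fold higher (log2 fold change 4.25 ± 0.14 SE, adjusted p = 9.58e-14). Without LPS the same gene stood at 131, 127 and 109 CPM in control and 456, 474 and 419 CPM in Dicer KO. Both genotypes were thus lower with LPS, and the ratio between them was larger (difference of the log2 effects 2.37, adjusted p = 1.46e-08, edgeR). Olfml3 came next (16.1-fold), and genes of interferon-induced families were among the 15 largest rises. Ifit1bl1 rose 15.1-fold to 2356, 2226 and 2240.2 CPM, Tgtp1 13.6-fold, Ifit3b 9.86-fold, and Apol9a and Apol9b 8.95-fold and 6.91-fold, and each has close paralogs with which reads can be shared. Rsad2, which encodes the antiviral enzyme viperin, measured 3116, 2356 and 2776 CPM in control and 24678, 26115 and 26589 CPM in Dicer KO, 9.38-fold higher (adjusted p = 5.03e-09). Cd69, an early activation receptor of leukocytes, rose from 241, 192 and 218 to 1629, 1595 and 1582 CPM (7.37-fold, adjusted p = 2.38e-07). Spsb1, a SOCS box adaptor known for marking the inducible nitric oxide synthase for degradation, rose from 6.55, 4.96 and 6.14 to 52.5, 45.6 and 48.6 CPM (8.31-fold, adjusted p = 1.20e-12). In each of these genes every Dicer KO library lay above every control library. The rest of the 15 were Dnase1l3, a secreted nuclease that digests chromatin (11.1-fold), Serpina3f (8.404-fold), Serpinb1c (8.13-fold), the integrin gene Itgb3 (7.16-fold) and Hmga2 (6.61-fold). Among genes above 200 CPM, Serpina3g (6.57-fold), Gbp4 (6.53-fold), the death ligand gene Tnfsf10 (5.99-fold), Trim30c (5.87-fold), and the chemokine genes Cxcl11 (5.94-fold, opposite-strand genes cover 41.7% of its exons) and Ccl12 (5.44-fold) completed the 10 largest rises. Where genes on the opposite strand cover exons of a named gene, the share covered is given, because reads of the 2 strands may not have been separated.

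Falls were led, after Lyz2, by Egln3, an oxygen-sensing prolyl hydroxylase. It measured 34.7, 55.5 and 45.5 CPM in control and 3.31, 2.403 and 1.81 CPM in Dicer KO, a 18.1-fold drop (log2 fold change -4.17 ± 0.63 SE, adjusted p = 4.47e-04). Arrb1, which encodes the receptor adaptor beta-arrestin 1, fell from 33.9, 45.4 and 36.1 to 4.13, 4.66 and 4.14 CPM (8.92-fold, adjusted p = 1.99e-12), and its values did not overlap. Marco, a scavenger receptor that LPS induces, fell from 232, 243 and 235 to 27.1, 31.5 and 35.1 CPM (7.58-fold, adjusted p = 2.67e-15). Every Dicer KO library lay far below every control library. Scd2, a fatty acid desaturase, fell 8.72-fold, Vegfa, an angiogenic growth factor, 8.47-fold, and Selenbp1 9.03-fold. In Vegfa Dicer KO replicate 1 stood at 7.74 CPM against 3.38 and 3.09 in the other 2. The remaining largest falls were in Clec2i, Mgarp, Lrp2bp, Rcor2, Ankrd37 (opposite-strand genes cover 26.4% of its exons), Zfp395, the transcription factor gene Ets1, and Epm2a, between 6.61-fold and 12.96-fold lower. Among genes above 200 CPM, falls between 2.13-fold and 2.59-fold were found in Gpi1, Bnip3, Ms4a4a, Slc16a3, Hmox1, the nuclear long noncoding RNA Neat1 (1329, 1529 and 1459 against 775, 615 and 576 CPM), Tubb5 and Msmo1.

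**Figure D2:**
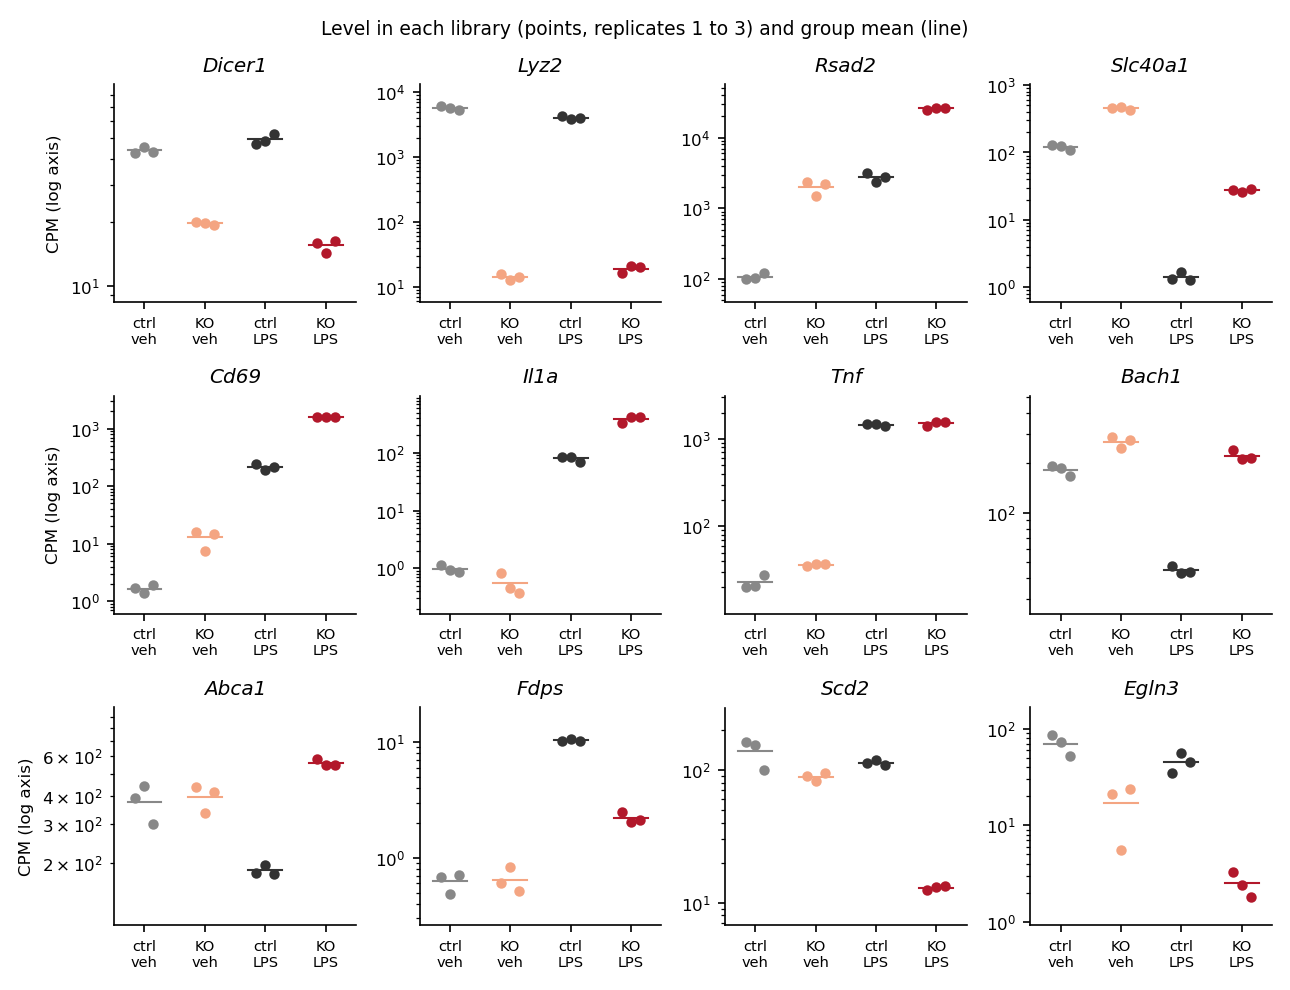
Level of 12 genes in each of the 12 libraries (CPM, log axis), with replicates 1 to 3 as points and the group mean as a line, for control (ctrl) and Dicer KO (KO) with vehicle (veh) or LPS. Dicer1 and Lyz2 are lower in every Dicer KO library, Rsad2 and Cd69 higher in both treatments, Il1a, Abca1, Fdps and Scd2 separate mainly with LPS, and Tnf overlaps between genotypes after LPS.

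The microRNAs that Dicer would produce were not measured here, but their messages can be grouped by seed matches. Mature sequences from RefSeq (GRCm38.p6) of 5 microRNAs on which the results below turn are printed with the seed, bases 2 to 8, in capitals. The first 4 are shown because the target sites that follow pair with their seeds, and miR-142a-3p because its seed group had the highest median.
let-7a-5p: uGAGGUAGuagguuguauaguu
miR-155-5p: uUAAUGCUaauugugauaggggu
miR-146a-5p: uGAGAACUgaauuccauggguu
miR-21a-5p: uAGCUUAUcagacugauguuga
miR-142a-3p: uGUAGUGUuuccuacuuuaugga

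Sites were searched in the 3′ UTR of the longest coding transcript of each gene in GENCODE M21, as the 8 bases that pair with the seed and end in A. The examples below give 24 bases of the message strand, with the match in capitals. The first 5 are in genes that rose in Dicer KO and the last pair in genes that fell.
Bach1, let-7a-5p, chr16:87731992-87732015 (+ strand, GRCm38): tggatttcCTACCTCActggacac
Bach1, miR-155-5p, chr16:87732180-87732203 (+ strand, GRCm38): aacagtttAGCATTAAgggttaat
Hmga2, let-7a-5p, chr10:120364216-120364239 (- strand, GRCm38): ttcaatttCTACCTCAgcatcagt
Tgfbr1, let-7a-5p, chr4:47410835-47410858 (+ strand, GRCm38): tggttgttCTACCTCActgagaga
Socs1, miR-155-5p, chr16:10784198-10784221 (- strand, GRCm38): tgtgccgcAGCATTAAgtgggggc
Irak1, miR-146a-5p, chrX:74015385-74015408 (- strand, GRCm38): gaggtcaaAGTTCTCAtgcttgga
Pdcd4, miR-21a-5p, chr19:53929424-53929447 (+ strand, GRCm38): gtgttctgATAAGCTActttctaa

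Bach1, a heme-regulated repressor of antioxidant genes and a textbook miR-155 target, holds 2 let-7 matches and 1 miR-155 match. It measured 47.6, 43.2 and 43.97 CPM in control and 238, 211 and 214 CPM in Dicer KO after LPS, 4.92-fold higher (log2 fold change 2.30 ± 0.07 SE, adjusted p = 1.33e-13). Vehicle levels were 192, 186 and 168 CPM in control and 288, 244 and 274 CPM in Dicer KO. Every LPS library was below every vehicle library of the same genotype, by more in control than in Dicer KO, and the genotype effects differed by 1.73 on the log2 scale (adjusted p = 2.10e-09). Hmga2, a chromatin protein and the classical let-7 target, rose from 8.84, 8.05 and 8.0 to 50.3, 54.4 and 59.8 CPM. Igf2bp2, an RNA-binding protein gene with 1 let-7 match, rose from 140.1, 131 and 135 to 313, 337 and 340.3 CPM (2.44-fold). The receptor gene Tgfbr1, named for its site after its values were seen, rose from 26.7, 27.2 and 27.2 to 83.3, 98.9 and 101 CPM (3.49-fold, adjusted p = 9.71e-08). Socs1, a brake on cytokine receptors, rose from 54.6, 60.6 and 64.5 to 148, 124 and 119 CPM (2.17-fold). In all 5 the groups did not overlap. Lcor, a nuclear receptor corepressor, rose from 14.5, 13.1 and 15.1 to 34.6, 32.5 and 35.1 CPM (2.39-fold, adjusted p = 2.43e-10), and its UTR holds 0 let-7 matches of this kind.

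Of 39 textbook let-7 targets 33 were tested, 22 rose and 7 fell (median log2 fold change 0.58, against -0.03 over all genes). With library totals 16 were higher and 9 lower, with a median of 0.22 against -0.38 over all genes. Arid3b rose by 1.49. Those that fell included Dicer1 itself, Gtf2i (-1.10), E2f6 (-1.01), Slc20a1 (-0.70), Nap1l1 (-0.50) and Hras (-0.36), and, like the members named below as exceptions in other lists, they were named after their values were seen. Of 53 textbook targets of other macrophage microRNAs 52 were tested, 31 rose and 10 fell, with a median of 0.43 in LPS and 0.03 in vehicle. With library totals that median was 0.07, with 19 higher and 22 lower. Among them Irak1, a TLR4 pathway kinase with 2 miR-146a matches, fell from 65.6, 66.05 and 63.8 to 46.6, 44.1 and 46.5 CPM, and Pdcd4, a textbook miR-21 target, from 2.16, 2.72 and 2.36 to 1.05, 1.43 and 1.43 CPM. Traf6, with 4 miR-146a matches, measured 60.5, 60.7 and 68.4 CPM in control and 63.2, 56.2 and 60.9 CPM in Dicer KO (log2 fold change -0.07 ± 0.06 SE, adjusted p = 0.352). These 3 were named for their sites after their values were seen. The presence of a seed match thus went with either direction in single genes.

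Over all 11583 tested coding genes with a UTR, 30.8% were higher and 28.7% lower. Of the 28 microRNAs matched in the RefSeq table, 22 are known from myeloid cells and 6 were taken from other tissues. Those listed but not matched were miR-122-5p, miR-1a-3p, miR-133a-3p, miR-124-3p, miR-375-3p and miR-302a-3p, so the second class is small. Genes with an 8-base match were higher in 31.6 to 41.3% of cases for the myeloid microRNAs and in 32.3 to 37.9% for those of other tissues. Median log2 fold changes were 0.01 to 0.12 and -0.02 to 0.04. The highest median was for miR-142a-3p, a microRNA of blood cells, at 0.12 over 319 genes. For let-7a the 373 genes had a median of 0.04, with 35.7% higher and 29.0% lower, and for miR-155 the 336 genes had 38.4% higher and 21.4% lower. By number of 7-base let-7 matches, 30.4% of genes with 0 were higher, 34.6% with 1, 37.4% with 2 and 47.6% of the 21 genes with 3 or more. UTR length moved in the same way, with 25.3%, 31.8% and 35.4% of genes higher in 3 groups of equal size from the shortest to the longest UTRs (limits 540 and 1553 bases). The part of UTR length in the seed groups was not tested beyond medians within those 3 groups.

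**Figure D3:**
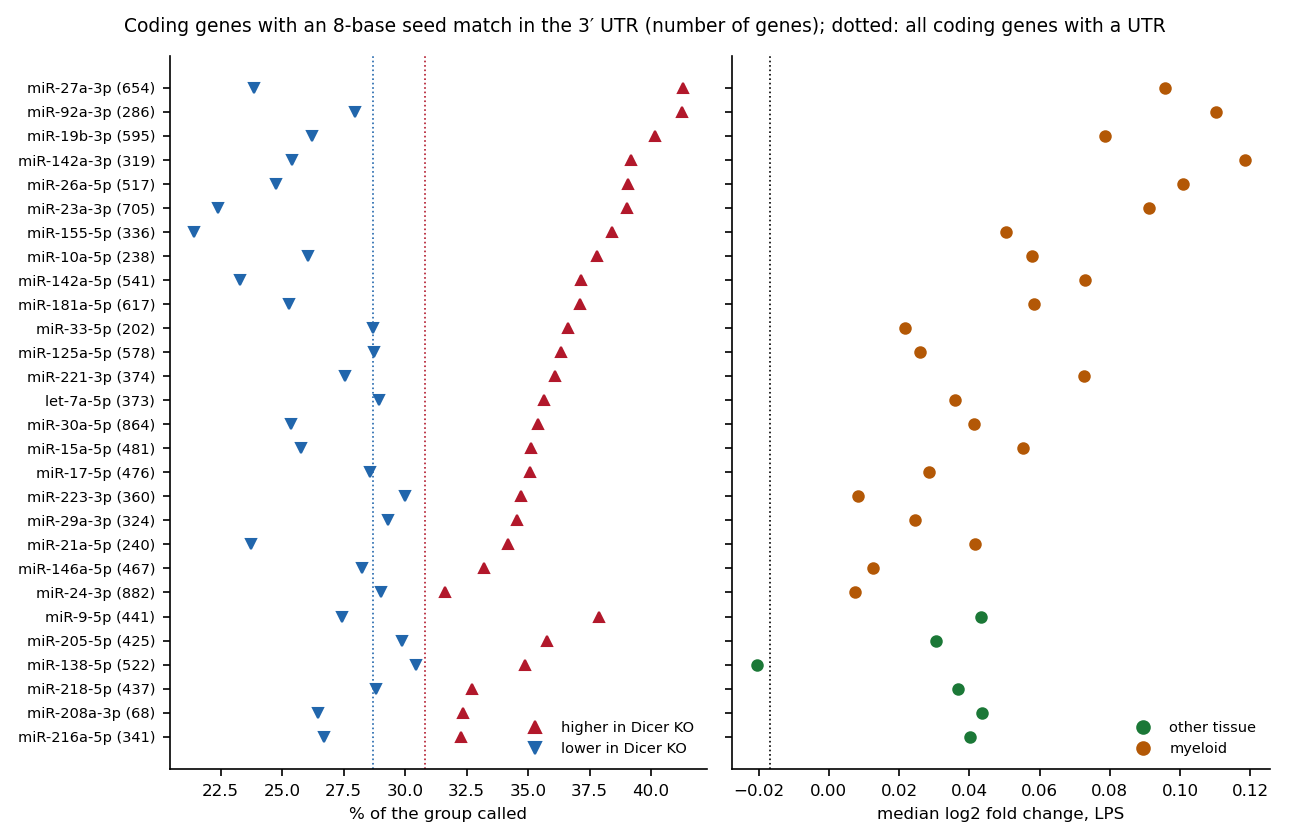
Coding genes grouped by an 8-base seed match of 28 microRNAs, with the percentage called higher or lower in Dicer KO after LPS on the left and the median log2 fold change on the right; dotted lines give all 11583 coding genes with a UTR. The 22 myeloid microRNAs span medians of 0.01 to 0.12 and the 6 of other tissues -0.02 to 0.04, so the ranges overlap.

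Antiviral genes induced by type I interferon rose almost throughout. Of 48 listed 47 were tested, 44 rose and 2 fell, with a median log2 fold change of 0.90 in LPS and 1.80 in vehicle, and the counts with library totals were 41 and 2. Together they held 2.85 to 3.13% of all counts in the control LPS libraries and 6.43 to 6.49% in the Dicer KO LPS libraries. Isg15, a ubiquitin-like modifier, rose from 1513, 1338 and 1357 to 2637, 2616 and 2579.5 CPM (1.86-fold), and Ifit1, which binds foreign RNA caps, from 1244, 1013 and 1104 to 3708, 3853 and 3837 CPM (3.39-fold). In vehicle Ifit1 stood at 41.4, 41.96 and 56.1 CPM in control and 481, 322 and 456 CPM in Dicer KO, so that every Dicer KO library lay above every control library in both treatments. Isg15 and Ifit1 were named as familiar members after their values were seen. By the naming rule Rsad2, the ubiquitin ligase gene Trim21 (1.08), Parp9 (1.05, 9.401% of exons covered) and Eif2ak2, which encodes the RNA-activated kinase PKR (0.81), led the list. Ifi27 was among the members that fell (-0.93), and Ifitm1 was not called. In 40 of the 47 the effect was more negative in LPS than in vehicle, against 18.8% of all genes, and in 3 more positive (14.9% of all genes).

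The interferon-inducible GTPases, which attack the vacuoles of intracellular microbes, rose in 18 of 19 cases (16 with library totals), with a median of 1.44. Gbp2b was not called, at -0.49. Irgm1 rose from 656, 562 and 597 to 1545, 1571 and 1563 CPM (2.58-fold), Irgm2 2.96-fold and Igtp 2.71-fold. Of 29 ligands, receptors and transducers of the pathway 27 were tested, 21 rose and 3 fell (17 and 6 with library totals). Ifnb1, the interferon beta gene itself, measured 0.524, 0.424 and 0.3101 CPM in control and 2.03, 2.25 and 1.73 CPM in Dicer KO (4.78-fold, adjusted p = 3.94e-05). In vehicle it had 0 counts in the control libraries and 0.512, 0.154 and 0.233 CPM in Dicer KO. The transcription factor genes Irf1 (1.26), Irf5 (0.97), Irf9 (0.78) and Stat3 (0.78) rose. The members that fell were Ifngr1, a chain of the interferon gamma receptor (-1.14), Mavs (-0.48) and Irf3 (-0.31).

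Promoters of interferon-induced genes are known for the interferon-stimulated response element, which was searched as GAAA, any 2 bases and GAAA on both strands from 250 bases before to 50 after each RefSeq start. It was found in 3.44% of all 32851 windows, in 8.94% of the 761 windows of genes at least 2-fold higher and in 2.10% of the 811 windows of genes at least 2-fold lower. It was present in 15 of 41 windows of the antiviral list and in 10 of 12 of the GTPases. A match is a description of the sequence and not a measured site. Windows of Rsad2 and Tgtp1, among the largest rises, are printed 5′ to 3′ on the strand of the gene, from RefSeq GRCm38.p6, with the match in capitals.
Rsad2, chr12:26456403-26456702 (- strand): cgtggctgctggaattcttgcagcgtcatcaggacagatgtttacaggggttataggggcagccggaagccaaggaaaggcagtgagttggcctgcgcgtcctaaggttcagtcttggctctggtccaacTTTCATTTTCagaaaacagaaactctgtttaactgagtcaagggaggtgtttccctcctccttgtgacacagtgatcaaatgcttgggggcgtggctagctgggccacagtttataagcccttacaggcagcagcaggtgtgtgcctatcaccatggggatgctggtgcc
Tgtp1, chr11:48992197-48992496 (- strand): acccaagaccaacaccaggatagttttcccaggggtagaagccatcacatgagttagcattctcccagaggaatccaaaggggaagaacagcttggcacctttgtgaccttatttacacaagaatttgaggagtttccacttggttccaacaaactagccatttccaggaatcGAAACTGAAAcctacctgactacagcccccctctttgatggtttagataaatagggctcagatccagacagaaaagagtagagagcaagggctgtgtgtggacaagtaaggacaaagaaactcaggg
The first base of the match lies 120 bases before the start in Rsad2 and 77 bases before it in Tgtp1.

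**Figure D4:**
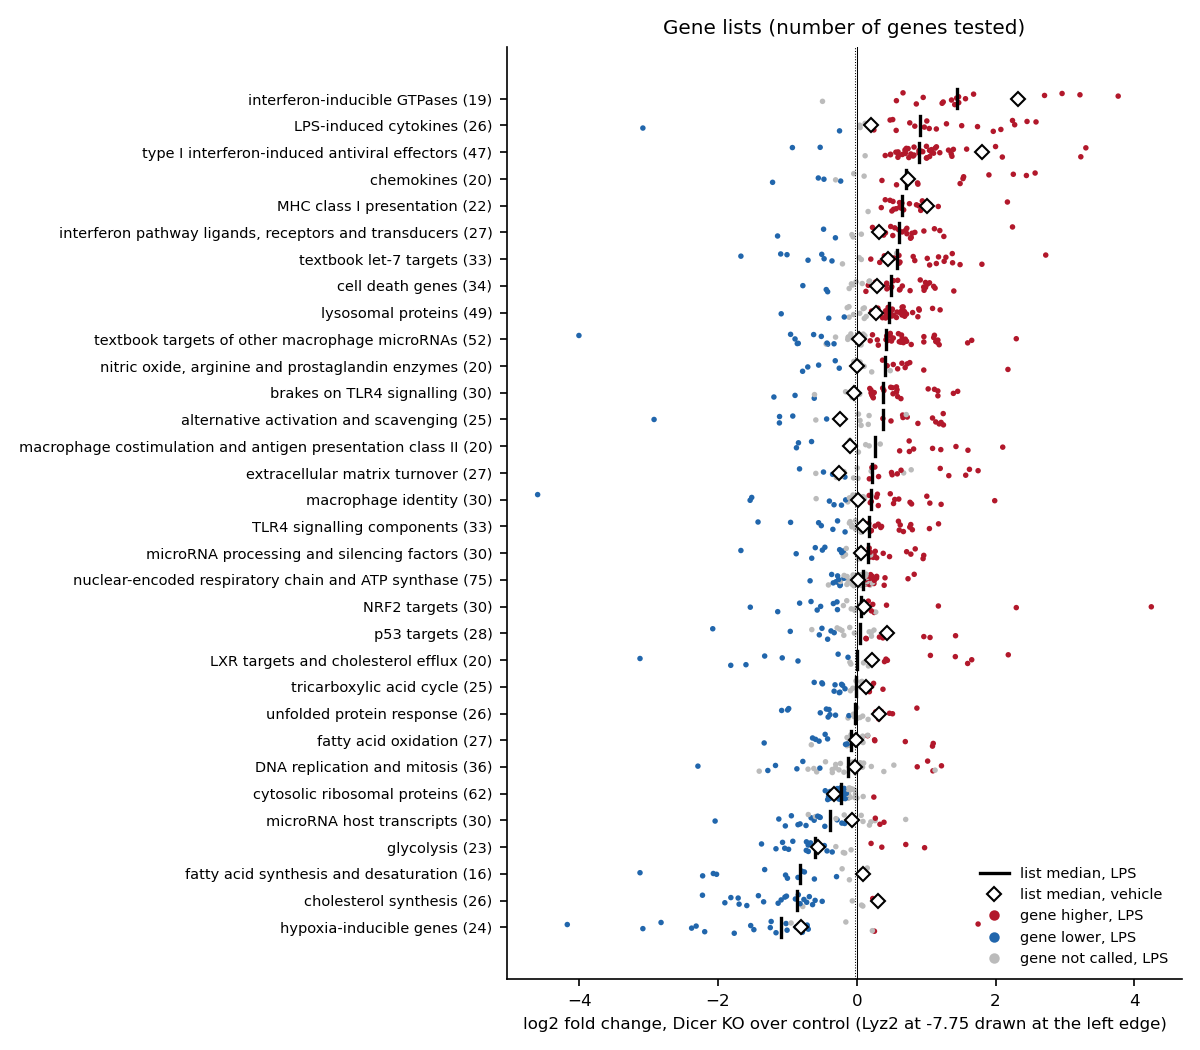
Log2 fold change of Dicer KO over control after LPS for each tested gene of the lists with at least 15 tested genes (points, coloured by call), with the list median in LPS as a bar and in vehicle as a diamond. Interferon-inducible GTPases have the highest median at 1.44 and hypoxia-inducible genes the lowest at -1.09; the dotted line is the median of all genes at -0.03.

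Among 30 LPS-induced cytokine genes 26 were tested, 19 rose and 2 fell, with a median of 0.91 in LPS and 0.20 in vehicle (14 and 4 with library totals). Il1a, an alarmin of the IL-1 family, rose from 85.6, 84.1 and 70.5 to 324, 425 and 414 CPM (4.84-fold, adjusted p = 9.93e-10, 11.2% of exons covered), while its neighbour Il1b measured 1879, 1895 and 1655 CPM in control and 1724, 1945 and 1924 CPM in Dicer KO (log2 fold change 0.04 ± 0.26 SE, adjusted p = 0.905). The values of Il1b overlapped between genotypes. The IL-1 receptor antagonist gene Il1rn rose from 2731, 2285 and 2304 to 6639, 7138 and 7112 CPM (2.85-fold). Csf1, the macrophage growth factor (4.22-fold), Pdgfb (3.92-fold) and Il27 (2.01-fold) rose as well. Il10, an anti-inflammatory cytokine, rose from 49.1, 42.3 and 43.8 to 112, 97.7 and 89.7 CPM (adjusted p = 6.06e-08) and Il6 from 31.9, 31.96 and 28.1 to 49.4, 55.5 and 59.3 CPM (adjusted p = 3.43e-07). Tnf measured 1497, 1476 and 1413 CPM in control and 1422, 1556 and 1559 CPM in Dicer KO, which overlap (log2 fold change 0.05 ± 0.08 SE, adjusted p = 0.644; -0.30 with library totals, adjusted p = 0.00255). Il12b, a subunit of IL-12 and IL-23, measured 103, 92.02 and 92.8 CPM in control and 103, 116 and 123 CPM in Dicer KO (log2 fold change 0.25 ± 0.08 SE, adjusted p = 0.0139). Its call was lost without Dicer KO LPS replicate 2 or 3 or control LPS replicate 2 or 3, and with library totals the sign turned to -0.11. The members that fell were Vegfa and Tgfb1 (-0.25).

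Of 24 chemokine genes 20 were tested, 13 rose and 4 fell (median 0.71). Cxcl10, a chemokine for T cells that interferon induces, rose from 3007, 2157 and 2556 to 7719, 7411 and 7329.8 CPM (2.91-fold, adjusted p = 4.80e-04). Ccl12 rose from 50.4, 35.1 and 41.2 to 228, 230.5 and 231 CPM, Cxcl9 2.89-fold, Ccl8 2.804-fold and Cxcl16 1.84-fold. Those lower were Ccl6 (-1.21), Cx3cl1 (-0.55; call lost with DESeq2 and without Dicer KO LPS replicate 1 or 2 or control LPS replicate 3, adjusted p up to 0.127), the neutrophil chemokine gene Cxcl1 (-0.47) and Ccl9 (-0.23), and Ccl5, among the most abundant, measured 5330.4, 5144 and 5340.5 CPM in control and 5802, 5606 and 5614 CPM in Dicer KO (adjusted p = 0.513).

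TLR4 signalling components rose in 16 and fell in 7 of 33 cases, with a median of 0.17, or 9 and 18 and a median of -0.18 with library totals. Tlr4 itself rose from 19.9, 18.3 and 20.4 to 44.6, 42.4 and 45.6 CPM (2.26-fold, adjusted p = 1.91e-09), the adaptor gene Myd88 1.72-fold and the kinase gene Map3k8 2.07-fold, while Mapk14, which encodes the kinase p38 alpha, fell from 86.02, 87.7 and 88.1 to 43.7, 44.3 and 47.1 CPM (1.94-fold, adjusted p = 2.65e-11). Brakes on the pathway rose in 23 and fell in 3 of 30 cases (median 0.38 in LPS and -0.04 in vehicle; 13 and 10 with library totals). The phosphatase genes Dusp1 and Dusp2 rose 2.25-fold and 2.63-fold, and the deubiquitinase gene Otud7b 2.04-fold. The brakes that fell were Zfp36l1 (-1.19), Pdcd4 and Irak3 (-0.61). In 14 of the 30 the effect was more positive in LPS than in vehicle (14.9% of all genes) and in 3 more negative (18.8% of all genes).

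Nos2, the inducible nitric oxide synthase gene, rose from 3029, 2864 and 3212 to 5871, 5815 and 6102 CPM (1.95-fold, adjusted p = 0.00113). Of 22 enzymes of nitric oxide, arginine and prostaglandin metabolism 20 were tested, 10 rose and 5 fell (4 and 7 with library totals). Arg2, the mitochondrial arginase, rose from 7.14, 7.45 and 5.77 to 31.3, 31.8 and 29.1 CPM (4.53-fold, 19.96% of exons covered), Ptges, the prostaglandin E synthase gene, 1.698-fold, and Gch1, which makes the cofactor of nitric oxide synthase, 1.66-fold. Lta4h of leukotriene synthesis fell 1.72-fold.

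MHC class I presentation genes rose in 21 of 22 cases (18 with library totals), with a median of 0.65, and Calr was not called (0.16, adjusted p = 0.0706). It was called higher with DESeq2, with RLE scaling, with no filter and without Dicer KO LPS replicate 1 (adjusted p = 0.0135), control LPS replicate 1 or control vehicle replicate 3, and lower with library totals. H2-Q6 rose 4.505-fold and H2-Q4 2.26-fold, both of a family of close paralogs, the peptide-loading gene Tapbpl 2.08-fold and the peptide-trimming gene Erap1 1.89-fold. Costimulation and class II genes were mixed, with 9 of 20 higher and 3 lower (8 and 9 with library totals), and their median of 0.26 turned to -0.09 with library totals and was 0.09 without Dicer KO LPS replicate 1. Ciita, the master regulator of class II, rose from 2.03, 1.94 and 2.29 to 8.87, 9.39 and 8.74 CPM (4.31-fold, adjusted p = 5.21e-10), whereas in vehicle it was lower in Dicer KO (8.94, 11.0 and 9.78 against 4.42, 4.38 and 4.48 CPM). The costimulatory genes Cd40 (2.13-fold), Cd83 (3.04-fold) and Cd48 (1.53-fold) rose. The class II gene H2-Ab1 was lower (-0.65), as were H2-Ob (-0.84, call lost without Dicer KO LPS replicate 1 or 2 or control LPS replicate 2, adjusted p up to 0.0955) and Vsir (-0.87).

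Cholesterol synthesis genes fell. Of 27 listed 26 were tested, 21 fell and 1, Scap, rose (0.23, negative with library totals), with a median of -0.86 in LPS and 0.31 in vehicle (19 lower without Dicer KO LPS replicate 1, and 25 lower and 0 higher with library totals). Fdps, which makes farnesyl diphosphate, fell from 10.2, 10.7 and 10.1 to 2.48, 2.03 and 2.11 CPM (4.68-fold, adjusted p = 1.18e-09), and Lss, which closes the sterol rings, from 61.4, 57.6 and 59.8 to 13.7, 20.7 and 20.3 CPM (3.27-fold). The groups did not overlap in either gene. Mvd fell 3.0-fold and Acat2 2.196-fold. In Lss Dicer KO replicate 1 was the lowest library, at 13.7 CPM. The effect was more negative in LPS than in vehicle for 21 of the 26 genes, against 18.8% of all genes.

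Fatty acid synthesis genes moved in the same direction. Of 18 listed 16 were tested, 12 fell and 0 rose, with a median of -0.82 in LPS and 0.09 in vehicle. Scd2 fell from 113, 118 and 108 to 12.3, 13.1 and 13.4 CPM (8.72-fold, adjusted p = 2.48e-07), Acaca, the acetyl-CoA carboxylase gene, 2.001-fold, Elovl5 1.73-fold and Srebf1, the transcription factor gene of the pathway, from 90.1, 98.98 and 95.8 to 53.5, 51.4 and 53.5 CPM (1.799-fold). Targets of the LXR receptors split, with 8 of 20 higher and 8 lower, against 28.8% and 27.0% of all genes (5 and 11 with library totals). The exporter gene Abca1 rose from 181, 196 and 179 to 584, 551 and 548 CPM (3.03-fold, adjusted p = 8.46e-07), against 390.1, 439.6 and 299.6 CPM in control and 436, 333 and 417 CPM in Dicer KO in vehicle, and Abcg1 rose 3.15-fold. Ch25h, which makes an oxysterol, rose 4.54-fold (11.5% of exons covered) and Mylip, which degrades the LDL receptor, 2.09-fold. Srebf1, Scd2 and Apoe, listed with the same receptors, fell, but Apoe was knocked out in all donors, so its residual level is no readout of these receptors. A sterol element searched as CACCCCA on both strands was found in 3 of 25 promoter windows of the cholesterol list and in 7.62% of all windows.

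Hypoxia-inducible genes had the lowest median of all lists, -1.09 in LPS and -0.80 in vehicle, with 19 of 24 tested lower and 2 higher (21 and 1 with library totals; 18 and 2 without Dicer KO LPS replicate 1). The summed level of the list went the other way, at 2565 to 2714 CPM in control and 3253 to 3508 CPM in Dicer KO, and a sum weights abundant members most. Besides Egln3 and Vegfa, Ndrg1 fell from 93.7, 106 and 101 to 51.1, 42.8 and 40.5 CPM (2.24-fold), the mitophagy gene Bnip3l 1.62-fold and Higd1a 2.03-fold. Replicate 1 had the highest level of the Dicer KO group in Egln3, Vegfa, Ndrg1 and Bnip3l. The core of the hypoxia element, ACGTG, was found in 15 of 29 promoter windows of this list, in 19.6% of all windows and in 25.2% of those of tested genes.

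Glycolysis genes fell in 15 and rose in 4 of 23 cases (median -0.61 in LPS, -0.56 in vehicle). Gpi1 fell from 589, 690.1 and 622 to 271, 235 and 228 CPM (2.59-fold, 11.5% of exons covered), Pgam1 1.62-fold, Pfkfb4 2.05-fold and the lactate exporter gene Slc16a3 from 481, 586 and 518 to 285, 211 and 211 CPM. Rises were in Hk3, a hexokinase of myeloid cells (1.97-fold), the glucose transporter gene Slc2a6 (1.63-fold), Pfkfb3 (0.36, 0.01 with library totals) and Hk1 (0.21, negative with library totals). The effects of the 2 treatments differed in 4 of the 23 genes, against 33.7% of all genes. Tricarboxylic acid cycle genes had a median of -0.01, with 7 of 25 higher and 10 lower (0 and 21 with library totals). Nuclear-encoded respiratory chain genes had a median of 0.09, with 19 of 75 higher and 10 lower, which turned to 2 and 61 with library totals. Of all genes 28.8% were higher and 27.0% lower. Pdha1 fell 1.42-fold, Idh3a 1.53-fold and Dlst 1.25-fold, while Cycs, the cytochrome c gene, rose from 153, 126 and 135 to 245, 249 and 241 CPM (1.77-fold). Of 27 fatty acid oxidation genes 6 rose and 8 fell (3 and 20 with library totals), against 28.8% and 27.0% of all genes. Cpt1a, which brings fatty acids into mitochondria, rose 1.62-fold and Eci2 2.15-fold, and Acadm fell 1.37-fold.

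Lysosomal protein genes rose in 37 and fell in 3 of 49 cases, with a median of 0.46 (22 and 13 with library totals). Gla, an alpha-galactosidase, rose from 101, 79.1 and 88.7 to 193, 205 and 220.2 CPM (2.299-fold), the peptidase gene Tpp1 1.87-fold and Idua 1.86-fold. Tfeb, the transcription factor known for inducing lysosomal genes, was lower (15.1, 17.3 and 17.5 against 7.59, 8.11 and 7.76 CPM, adjusted p = 1.20e-06), as were Gm2a (-0.40) and Neu1 (-0.18). Cytosolic ribosomal protein genes fell in 48 of 62 cases by small amounts (median -0.23; 61 with library totals), and 1, Rps24, was higher (0.25, negative with library totals). Rpl3 measured 351, 341 and 344 CPM in control and 256, 253 and 247 CPM in Dicer KO.

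Of 30 NRF2 targets and regulators, among them genes of iron and antioxidant metabolism, 8 rose, including Slc40a1 and Bach1, and 9 fell, near the 28.8% and 27.0% of all genes (3 and 23 with library totals). Hmox1, the heme oxygenase that Bach1 is known to repress, fell from 905, 1017 and 919.5 to 399.7, 433 and 458 CPM (2.203-fold, adjusted p = 6.19e-11), against 435, 402 and 399.9 CPM in control and 378, 408 and 385 CPM in Dicer KO in vehicle. Tkt fell 1.49-fold. Unfolded protein response genes rose in 8 and fell in 10 of 26 cases, again near the shares of all genes (2 and 17 with library totals), with medians of -0.02 in LPS and 0.33 in vehicle. In 15 of the 26 the effect was more negative in LPS than in vehicle, against 18.8% of all genes. The sensor kinase gene Eif2ak3 fell 2.12-fold and Herpud1 1.99-fold, while Ppp1r15a rose 1.82-fold and Syvn1 1.43-fold. Targets of p53 had 10 of 28 higher and 7 lower, against 28.8% and 27.0% of all genes (3 and 14 with library totals). Their medians were 0.05 in LPS and 0.44 in vehicle. Mdm2 rose 2.08-fold and Plk2 2.69-fold, Btg2 rose 1.95-fold, and Sesn1 fell from 10.5, 12.3 and 10.8 to 2.93, 2.25 and 2.79 CPM (4.22-fold).

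Cell death genes rose in 24 and fell in 3 of 34 cases (median 0.50; 18 and 10 with library totals). The death-promoting gene Bcl2l11 rose from 95.7, 95.7 and 101 to 229, 204 and 199 CPM (2.16-fold), the inflammasome gene Aim2 1.99-fold and Casp1 1.99-fold. Those that fell were Casp6 (-0.78), Ripk3 (-0.44) and Bbc3 (-0.42, adjusted p = 0.0765 without control LPS replicate 3). Of 36 DNA replication and mitosis genes 4 rose and 6 fell, against 28.8% and 27.0% of all genes, and 26 were not called. With library totals 4 were called higher and 12 lower. Cdt1 and Tpx2 were higher (2.14-fold and 2.33-fold) and E2f1 and Bub1 lower (2.25-fold and 4.93-fold).

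Factors that process microRNAs or silence messages had 15 of 30 tested higher and 9 lower (5 and 18 with library totals). The RNA helicase gene Mov10 rose from 287, 278 and 297 to 576, 532 and 563 CPM (1.94-fold), the decapping enzyme gene Dcp2 1.95-fold and the silencing scaffold gene Tnrc6a 1.79-fold. All 4 Argonaute genes were lower, Ago1 at -0.50, Ago2 at -0.19, Ago3 at -0.87 and Ago4 at -0.25, with the call of Ago4 lost with DESeq2, with RLE scaling and without any of 4 single LPS libraries (Dicer KO 1 or 2, control 2 or 3; adjusted p up to 0.141). In Ago1, Ago2 and Ago3 the effect was more negative in LPS than in vehicle, and in Ago4 less negative. Host transcripts of microRNAs fell in 16 and rose in 3 of 30 tested cases (median -0.38 in LPS, -0.07 in vehicle; 21 and 0 with library totals). Mir155hg, which carries miR-155 and is induced by LPS, measured 70.7, 74.9 and 74.9 CPM in control and 80.1, 76.1 and 74.4 CPM in Dicer KO (adjusted p = 0.439). Mir142hg measured 11.01, 13.7 and 12.2 CPM in control and 9.17, 9.61 and 6.85 CPM in Dicer KO (-0.53), and Mir22hg 95.4, 101 and 90.98 CPM in control and 70.4, 65.9 and 61.7 CPM in Dicer KO (-0.54). The hosts Pank3, Smc4, Ctdsp2 and Srebf1 fell between 1.53-fold and 1.799-fold.

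Alternative activation and scavenging genes rose in 12 and fell in 5 of 25 tested cases, with medians of 0.38 in LPS and -0.24 in vehicle, and with library totals 10 rose and 9 fell. The TAM receptor genes Mertk and Axl, which take up dying cells, rose from 57.6, 46.2 and 54.6 to 132, 119 and 117 CPM and from 308, 282 and 305 to 723, 699.7 and 706 CPM, and the glucan receptor gene Clec7a rose 2.37-fold. Marco, Cd163 (-1.11, adjusted p = 0.0606 without Dicer KO LPS replicate 3), Folr2 (-1.11), Egr2 (-0.92) and Mrc1 (-0.43) fell. Matrix turnover genes rose in 13 and fell in 4 of 27 cases (7 and 13 with library totals), among them Plaur, the urokinase receptor gene (3.09-fold), and Mmp25 (2.97-fold), while Mmp12, the macrophage elastase, fell from 629.7, 664 and 615 to 370.4, 362 and 345 CPM.

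The cells carried macrophage markers in both groups. Adgre1, the gene of F4/80, measured 2163, 2096 and 2161 CPM in control and 1731, 1844 and 1936 CPM in Dicer KO, and Csf1r 1415, 1498 and 1426 CPM in control and 1324, 1322 and 1320.5 CPM in Dicer KO. Of 30 macrophage identity genes 16 rose and 7 fell (9 and 16 with library totals), and the list, Lyz2 included, held 2.26 to 2.31% of counts in control and 1.80% in Dicer KO. Shares of counts are not TMM-scaled, unlike the calls and CPM. In CPM the tested members of the list, Lyz2 included, summed to 24580 to 25982 in control and 25240 to 25503 in Dicer KO. Lyz2 alone had 64277 to 65349 counts in a control LPS library and 215 to 274 in a Dicer KO LPS library. Its drop lowers both the share and the sum in Dicer KO, so neither measures the other members. Itgax rose 3.97-fold and Cebpa, a myeloid transcription factor gene, fell from 12.8, 13.1 and 13.5 to 4.73, 3.83 and 4.97 CPM (2.904-fold). Many markers of other cells were scarce, but some were not. Bst2 had 9001 to 12937 counts in an LPS library, Kdr 1652 to 3353, Hdc 997 to 2187 and Pf4 1036 to 1272. These were not all such markers. Another dendritic cell marker had 1703 to 2397 counts, and the most abundant neutrophil marker 780 to 925. Abundant members weigh most in the share of a list, so a share does not measure a cell type. Neutrophil markers held 0.0172 to 0.0179% of counts in control and 0.0135 to 0.0158% in Dicer KO, with Mpo and Prtn3 of 13 tested higher at under 3 CPM. After TMM scaling the tested neutrophil markers summed to 187 to 201 CPM in control and 192 to 222 CPM in Dicer KO, which overlap. Stromal and endothelial markers held 0.0123 to 0.0140% and 0.0189 to 0.0215%, and Kdr, Cdh5, Pecam1 and Pdgfrb of 5 tested were higher, the calls of Pecam1 and Pdgfrb being lost with library totals (adjusted p = 0.0913 and 0.111). Dendritic cell markers held 0.0650 to 0.0676% and 0.0789 to 0.0808%, with Xcr1, Ccr7 and Bst2 of 6 tested higher and Batf3 lower. B cell markers held 0.000886 to 0.00104% and 0.000484 to 0.000568%, with Cd79b and Ighm of 2 tested lower. T and NK cell markers held 0.00151 to 0.00179% and 0.00268 to 0.00293%, with Lck of 2 tested higher, and mast cell and basophil markers 0.00562 to 0.00601% and 0.0114 to 0.0117%, with Hdc of 2 tested higher. Erythroid and megakaryocyte markers held 0.00593 to 0.00653% and 0.00575 to 0.00687%, with Pf4 of 4 tested higher (0.01 with library totals, adjusted p = 0.915). After TMM scaling the tested members summed to 65.1 to 70.8 CPM in control and 81.3 to 96.2 CPM in Dicer KO. Ighd, Blk, Cd3g, Ncr1, Fcer1a, Cma1, Lum, Hba-a1 and Hba-a2 had 0 counts in all 6 libraries. Among these the calls of Cd79b (2 libraries), Batf3 (4), Prtn3 (3) and Ighm (any of the 6) were lost when single LPS libraries were left out, with adjusted p up to 0.0721, 0.0779, 0.0896 and 0.130. Prtn3 also missed the threshold with library totals (adjusted p = 0.120). The part of these markers in the results was not tested.

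Genes near the targeted loci were counted as well. Within 10 Mb of Dicer1 9 of 117 tested genes (7.69%) changed at least 2-fold, within 5 Mb 5 of 50 (10%), and within 1 Mb 4 of 8, which were Atg2b and the serpin genes Serpina3f, Serpina3g and Serpina3i. Around Lyz2 the counts were 9 of 72 (12.5%) within 10 Mb, 7 of 39 (17.9%) within 5 Mb, Hmga2 and Mdm2 among them, and 2 of 13 (15.4%) within 1 Mb. Of all genes tested 12.7% changed at least 2-fold. Whether these genes moved because of their position was not tested.

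Compared with the vehicle libraries, genotype effects in LPS were partly shared and partly not. Of the genes higher in Dicer KO after LPS 2222 were also higher in vehicle, which is 55.8% of the LPS set and 64.2% of the vehicle set, and 242 were lower there. Among those lower after LPS 1629 were also lower in vehicle (43.5% and 55.5%) and 304 were higher there. The difference of the effects itself was called for 4669 genes (33.7%), 2067 more positive in LPS (14.9%) and 2602 more negative (18.8%). Both effects come from different libraries. Of all 13837 genes tested, 3459 were higher and 2935 lower in Dicer KO with vehicle, 46.2% in either direction. The overlaps above, in the same or the opposite direction, are to be read beside the count for the matching vehicle direction.

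Genes whose effect was more positive in LPS included several that were lower or not called in vehicle. Spsb1 measured 1.13, 0.5703 and 0.543 CPM in control vehicle and 0.558, 0.772 and 0.607 CPM in Dicer KO vehicle, which overlap, and the difference of the log2 effects was 3.28 (adjusted p = 1.45e-06). Sgk1, a kinase gene, was lower in Dicer KO vehicle (49.5, 46.3 and 45.9 against 36.3, 30.5 and 34.2 CPM) and higher in Dicer KO LPS (26.1, 23.2 and 22.4 against 105, 127 and 125 CPM), a difference of 2.80. Il1a (3.08), Arg2 (2.78) and Flrt3 (2.54) were higher after LPS and not called in vehicle. Cd38 and Vcam1 overlapped between genotypes after LPS and differed in vehicle. Cd38 measured 157, 139.7 and 143 CPM in control and 147, 148 and 145 CPM in Dicer KO after LPS but 0.364, 0.163 and 0.251 CPM in control vehicle and 0 counts in Dicer KO vehicle, and Vcam1 28.9, 25.5 and 25.8 CPM in control and 25.9, 28.5 and 27.4 CPM in Dicer KO after LPS but 0.971, 1.39 and 1.21 CPM in control and 0.1396, 0.154 and 0.327 CPM in Dicer KO in vehicle. Thbs1 measured 80.97, 79.0 and 78.1 CPM in control LPS and 149, 136 and 125 CPM in Dicer KO LPS without overlap, yet was not called in the fit of all 12 libraries (adjusted p = 0.333). Its vehicle libraries spread from 149 to 624 CPM in control, and in a fit of the 6 LPS libraries alone it was called (adjusted p = 6.21e-11). The difference of its effects (3.09, adjusted p = 0.0282) was lost without any 1 of 9 libraries (adjusted p up to 0.0632), all but Dicer KO vehicle replicates 1 and 2 and control vehicle replicate 3.

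Genes whose effect was more negative in LPS included interferon genes and lipid genes. Interferon genes were higher in Dicer KO in both treatments but by more in vehicle, such as Ifi44 (4.04 in vehicle and 1.36 in LPS), Ifi205 (3.70 and 1.17) and Cxcl10 (3.59 and 1.54). Lipg, an endothelial-type lipase, rose 4.56-fold after LPS and had 0, 0 and 0.0418 CPM in control vehicle against 1.72, 1.802 and 2.38 CPM in Dicer KO vehicle. Heatr9 was lower after LPS (-0.34) and higher in vehicle (2.55), and Olfr56 was higher in both (0.79 and 3.36). Fdps was lower after LPS and not called in vehicle (0.03, adjusted p = 0.9497). Arrb1 and Scd2 were further below control after LPS than in vehicle. In Arrb1 the vehicle levels were 302, 300.4 and 272 CPM in control and 214, 225 and 220.4 CPM in Dicer KO.

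**Figure D5:**
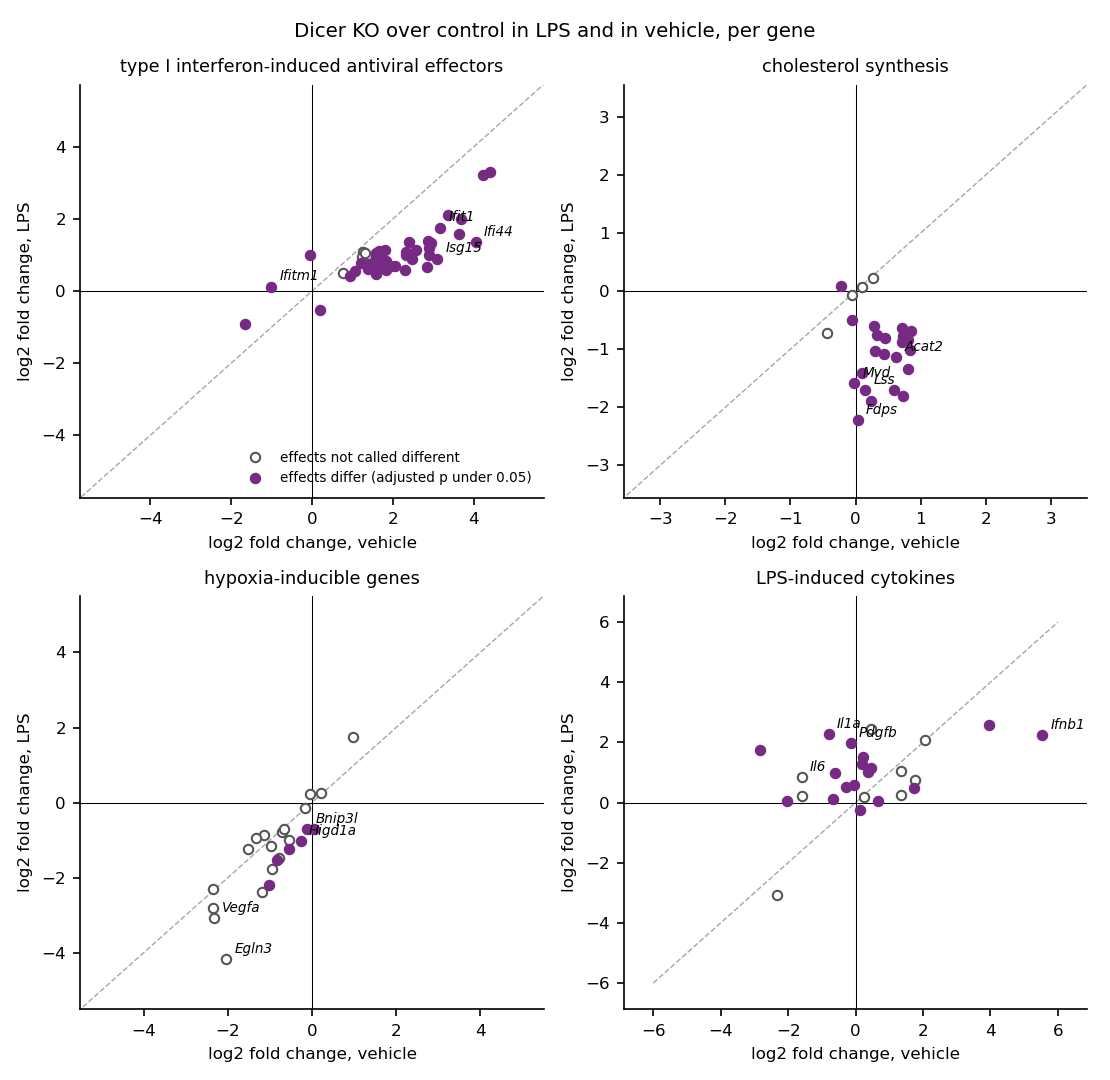
Log2 fold change of Dicer KO over control in vehicle (horizontal) and in LPS (vertical) for the tested genes of 4 lists; filled points differ between treatments at an adjusted p under 0.05, and the dashed line marks equal effects. Antiviral genes lie mostly above 0 on both axes and below the dashed line, cholesterol synthesis genes lie mostly below 0 only in LPS, and hypoxia-inducible genes lie nearer the line, and cytokine genes scatter on both sides of it.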

How the data were processed

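RNA-seq gene counts of 12 libraries, 3 in each of 4 groups, were used, and the 6 LPS libraries are the subject. Each value is a raw count per Ensembl gene, as deposited by the authors, 1 table per library. The labels' protocols give a stranded messenger RNA kit, and the submitters' processing notes name STAR 2.5, DESeq2 and the builds mm10 and GRCm38.p5. Which program counted the reads, with which annotation and with or without strand, is not given in the sources used here, so that genes which overlap on opposite strands may share reads, and reads of close paralogs may be split or dropped. Rows that name no gene (45.8 to 46.2% of reads without a feature in the LPS libraries) were left out, and genes held 41.7 to 42.6%. Of 46078 identifiers 45229 matched GENCODE M21 (GRCm38), and the others held 0.141% of counts. All 13 mitochondrially encoded protein genes are listed at 0 in the 12 libraries. No 2 libraries of a group agreed within sampling noise, the closest being Dicer KO LPS replicates 2 and 3 (chi-square per degree of freedom 1.32).

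The genotype effect in LPS, that in vehicle and their difference were tested with edgeR 4.0.16 (R 4.3.3, limma 3.58.1), by the quasi-likelihood test with robust dispersions, TMM scaling and the filterByExpr filter, fitted on all 12 libraries with 1 mean per group and 8 residual degrees of freedom. P-values were adjusted by Benjamini-Hochberg over the 13837 genes tested and called under 0.05. Standard errors are those of the unshrunken coefficient. Alternatives were DESeq2 1.42.0, RLE scaling, library totals, no filter, a filter of 50 counts in 3 libraries, a replicate block, the 6 LPS libraries alone, and leaving out each library. List counts without Dicer KO LPS replicate 1 were added after seeing the data.

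Named genes were the 15 largest rises and falls among called genes with a group mean of at least 5 CPM and no overlap, the 10 largest above 200 CPM, the 8 largest differences in each direction above 20 CPM, up to 4 members of each list by adjusted p, and a set of fixed genes. Genes of predicted name were left out, and some genes that the rule names are not reported here. The comparison, the gene lists and the rule were chosen with earlier results of these data known, and lists share some members. Sites and groups by UTR length used the longest coding transcript of each gene. Promoters and microRNAs came from RefSeq GRCm38.p6, in which 28 of 34 microRNAs matched.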

Additional observations from a re-analysis of the deposited data

Results flagged for a closer look

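The genotype effect after LPS differed from that in vehicle, by the edgeR test of the difference itself (adjusted p under 0.05), for 156 of the 235 genes named in the text that were tested, 70 more positive and 86 more negative in LPS, against 33.7% of all genes tested, 14.9% more positive and 18.8% more negative. Values below are the log2 effect in LPS minus that in vehicle. Some of the genes named in the text were chosen for the size of this difference itself. Others were named for their effects in LPS or were fixed genes. The counts among named genes are thus partly set by that choice. Beside the shares of all genes they cannot show whether such differences were more frequent. In 34 of the 156 the call was lost when 1 of the 12 libraries was left out. Among interferon pathway and antiviral genes the effect was more negative in LPS in Ifnb1 (-3.29), Ifi44 (-2.68), Isg15 (-2.21), Socs1 (-1.84), Ifit1 (-1.41), Ifit3b (-1.09), Rsad2 (-0.99), Bst2 (-0.95), Irgm1 (-0.83), Igtp (-0.75), Eif2ak2 (-0.72), Irgm2 (-0.55), Parp9 (-0.52) and Irf3 (-0.28). A more positive effect was found in Ifitm1 (1.13), Irf5 (0.95), Ifi27 (0.73) and Stat3 (0.53). Ifnb1 had 0 counts in control vehicle, so the size of its difference depends on the fit. Among cytokine and chemokine genes the effect was more negative in LPS in Cxcl10 (-2.05), Ccl12 (-1.97), Tnfsf10 (-1.37), Ccl5 (-1.26), Cx3cl1 (-1.17), Tnf (-0.61), Tgfb1 (-0.37) and Ccl9 (-0.31). The opposite held for Il1a (3.08), Pdgfb (2.11), Il1b (2.07), Il1rn (1.30), Cxcl16 (1.16), Il10 (0.69) and Il27 (0.63). Among TLR4 pathway, brake and nitric oxide genes the effect was more negative in LPS in Mapk14 (-0.64), Lta4h (-0.54), Irak1 (-0.48) and Traf6 (-0.24). More positive values were those of Arg2 (2.78), Ptges (1.05), Dusp1 (0.89), Dusp2 (0.83), Otud7b (0.60), Map3k8 (0.53) and Tlr4 (0.33). Among antigen presentation genes the effect was more negative in LPS in Calr (-0.56). The value was above 0 for Ciita (3.27), Cd83 (1.22), H2-Q6 (0.70), Cd48 (0.47), Cd40 (0.45) and H2-Q4 (0.37). Among sterol and fatty acid genes the effect was more negative in LPS in Scd2 (-2.48), Fdps (-2.25), Lss (-1.86), Acat2 (-1.76), Mvd (-1.56), Msmo1 (-1.53), Acaca (-1.21), Srebf1 (-0.84) and Elovl5 (-0.66). Above 0 were Abca1 (1.53), Abcg1 (1.02) and Mylip (0.69).

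Among hypoxia and energy metabolism genes the effect was more negative in LPS in Higd1a (-0.75), Pfkfb4 (-0.72), Idh3a (-0.60), Bnip3l (-0.59), Dlst (-0.46), Pdha1 (-0.42) and Acadm (-0.29). A more positive effect was found in Eci2 (1.47), Pfkfb3 (1.09), Slc2a6 (0.63) and Cpt1a (0.48). Among lysosome, ribosome, stress, cell cycle and death genes the effect was more negative in LPS in Sesn1 (-1.59), Bub1 (-1.46), Tfeb (-1.20), Hmox1 (-1.06), Eif2ak3 (-1.02), E2f1 (-0.97), Bbc3 (-0.68), Tkt (-0.60), Ripk3 (-0.50), Neu1 (-0.45) and Casp6 (-0.40). The opposite held for Slc40a1 (2.37), Bach1 (1.73), Tpx2 (1.14), Ppp1r15a (1.05), Mdm2 (0.81), Cdt1 (0.81), Plk2 (0.81), Btg2 (0.80), Rps24 (0.49), Gla (0.41), Aim2 (0.32), Idua (0.25) and Tpp1 (0.24). Among microRNA pathway genes and textbook targets the effect was more negative in LPS in Slc20a1 (-1.30), Mov10 (-1.24), E2f6 (-1.03), Pank3 (-0.84), Ago3 (-0.76), Gtf2i (-0.74), Ago2 (-0.55), Smc4 (-0.54), Dicer1 (-0.52), Hras (-0.51), Ago1 (-0.50), Mir22hg (-0.34) and Nap1l1 (-0.27). More positive values were those of Hmga2 (1.28), Arid3b (1.03), Tgfbr1 (0.88), Bcl2l11 (0.86) and Ago4 (0.45). Among scavenging, matrix, identity and other cell markers the effect was more negative in LPS in Marco (-2.06), Kdr (-1.84), Cebpa (-1.54) and Axl (-0.48). The value was above 0 for Thbs1 (3.09), Plaur (1.98), Mpo (1.37), Lck (1.34), Mertk (1.20), Prtn3 (1.20), Pdgfrb (1.10), Lyz2 (0.91), Pecam1 (0.75), Ighm (0.63), Clec7a (0.34), Folr2 (0.31) and Mrc1 (0.25). Among genes of no list the effect was more negative in LPS in Lipg (-4.41), Heatr9 (-2.89), Arrb1 (-2.75), Olfr56 (-2.56), Ifi205 (-2.52), Zfp395 (-2.37), Apol9b (-2.08), Selenbp1 (-1.76), Clec2i (-1.68), Rcor2 (-1.56), Epm2a (-1.34), Neat1 (-1.05), Atg2b (-0.95), Ets1 (-0.77) and Tubb5 (-0.76). Above 0 were Cd38 (5.31), Spsb1 (3.28), Olfml3 (2.82), Sgk1 (2.80), Flrt3 (2.54), Vcam1 (2.5), Itgb3 (1.35) and Serpinb1c (1.09). Cd38 had 0 counts in Dicer KO vehicle and Lipg 0 in 2 control vehicle libraries, and the size of both depends on the fit.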

How the results depend on the processing

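Scaling mattered most. With library totals the LPS comparison called 1885 genes higher and 7626 lower, 430 and 1916 of them at least 2-fold, and the difference of the effects was called more positive in 997 and more negative in 5136. The same setting turned Il12b to -0.11, Tnf to -0.30, Vcam1 to -0.32 and Cd38 to -0.35. Counts of higher and lower genes were 4263 and 3115 with DESeq2, 4424 and 3307 with RLE scaling, 3940 and 3797 with no filter, and 3695 and 3564 with the stricter filter. The 6 LPS libraries alone gave 3953 and 4035. Leaving out single libraries gave 3621 to 4103 higher and 3325 to 3901 lower genes, 815 to 880 and 854 to 962 at least 2-fold, and 1744 to 2206 more positive and 2277 to 2815 more negative differences. The difference for Thbs1 was lost under 9 of the 12 omissions and that for Lipg without control vehicle replicate 3 (adjusted p = 0.0608). The median over myeloid microRNAs of the seed group medians was 0.0528, and 0.0360 with 7-base matches, 0.0073, 0.0409 and 0.0717 within the shortest, middle and longest of 3 groups by UTR length. All coding genes of those 3 groups had medians of -0.0732, -0.0093 and 0.0362. The median over the myeloid microRNAs lay above these in each, but single seed groups lay on either side. With the shortest UTRs miR-92a-3p stood at -0.1832 and miR-223-3p at 0.325, and with the longest at 0.126 and -0.0281. Over the 6 microRNAs of other tissues the median was 0.0384, and 0.0228 with 7-base matches. Near Dicer1 4 of 8 genes (50%) within 1 Mb changed at least 2-fold, and 9 of 117 (7.69%) within 10 Mb. The cause of these shifts was not tested. Depth limits genes of a few CPM, which rest on few counts.

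Deviations of same-numbered LPS libraries from their group means correlated at -0.021, 0.021 and -0.020. Same-numbered libraries of other groups ranged from -0.232 to 0.182, both between control vehicle and Dicer KO vehicle. Such correlations cannot show whether same-numbered samples share a mouse or a batch, so pairing by replicate number was not settled. With a replicate block 3962 genes were higher and 3713 lower, and 3872 and 3932 in the 6 LPS libraries alone. No call of a gene effect in LPS named in the text changed with the block, while the differences for Thbs1 (adjusted p = 0.0523), Pdgfrb, Prtn3 and Tpx2 missed the threshold and those for Cxcl9 and Egr2 passed it.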

Other observations

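Calls were counted by annotated gene type, and differences between types were not tested. Of 11810 protein-coding genes tested 3633 (30.8%) were higher and 3385 (28.7%) lower in Dicer KO after LPS, against 28.8% and 27.0% of all genes. Of 302 long intergenic noncoding genes 49 (16.2%) were higher and 73 (24.2%) lower, and of 237 processed transcripts 25 (10.5%) and 62 (26.2%). Of 281 processed pseudogenes 25 (8.90%) were higher and 17 (6.05%) lower, and of 40 unprocessed pseudogenes 12 (30%) and 1 (2.5%), and reads of these can be shared with their parent genes. Of 704 antisense genes 164 (23.3%) were higher and 118 (16.8%) lower, and without a stated strand setting their reads cannot be told apart from those of the opposite gene. Of 48 genes annotated as microRNAs 6 were higher and 11 lower, and counts on such loci in a messenger RNA library do not measure mature microRNAs.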
